A study of Mus musculus with 8 samples.

Results

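Gap junction and cadherin genes of mouse primordial follicles were examined as a set of 8 genes, Gja1, Gja4, Gjc1, Gjb2, Cdh1, Cdh2, Cdh3 and Epcam, which were taken by symbol from the 26586 genes listed in the count table. All 8 were found, and 7 of them passed edgeR's expression filter as part of the 13873 genes tested. The follicles were isolated on postnatal day 3 from ovaries of mice with a C57Bl/6 x CBA background. The mito-supplemented group (4 libraries) came from the third generation of offspring after mitochondria had been added to oocytes at fertilisation, and the control group (4 libraries) from mice without this treatment. By the paper's methods, the first mice of the supplemented line also went through sperm injection, embryo culture, vitrification and embryo transfer. How the sequenced controls were conceived is not given, so these steps and the added mitochondria cannot be told apart here. The libraries held between 10370045 and 19760763 counts on genes. Levels are given as counts scaled to a common library size (CPM) by edgeR's TMM method, at which 1 CPM stood for between 5.07 counts in control replicate 4 and 24.4 counts in control replicate 1. Every direction given here rests on the sample labels. The colour key of the paper's heat map appears to place the groups the other way round, which would reverse each direction. The labels call the libraries biological replicates, and the paper counts mice and took RNA by the ovary, but the animal or litter of each library is not given and several label codes begin alike. The p values measure the spread between these libraries.

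A primordial follicle is an oocyte enclosed by a single layer of flattened granulosa cells. Gap junctions, built from connexins, let small molecules pass between these cells, and cadherins hold neighbouring cells together through catenins that tie them to actin. In later follicles the connexin encoded by Gja4 lies between the oocyte and its granulosa cells, and that encoded by Gja1 between granulosa cells.

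The libraries differed in their content of other cell types, which bears on each value below. The summed level of 6 red cell genes, of which Slc4a1 gave 63.6%, was 23.8, 3905, 2492 and 50.7 CPM in control replicates 1 to 4 and 4873, 79.6, 28.7 and 27.8 CPM in mito-supplemented replicates 1 to 4. Control replicates 2 and 3 and mito-supplemented replicate 1 were therefore far above the other 5 libraries. In control replicate 4, 75.3% of the counts lay on rRNA symbols, and 2559876 counts lay elsewhere. The summed level of 16 oocyte genes, led by Nlrp5 with 31.1% of the sum, was 4041, 216, 192 and 720.0 CPM in control replicates 1 to 4 and 311, 225, 889.7 and 138 CPM in mito-supplemented replicates 1 to 4. Control replicate 1 was the highest, and 13 of 13 oocyte genes tested were lower in mito-supplemented samples. That direction rests on control replicate 1, without which the mean oocyte sum was 376 CPM for control and 391 CPM for mito-supplemented libraries. The sum of 15 granulosa genes, led by Wt1 with 37.2%, was 305, 188, 294 and 889 CPM in controls and 460.4, 1114, 825 and 1207 CPM in mito-supplemented samples, with 11 of 13 tested higher in the latter. By these sums, markers of both follicle cell types were present in every library. Over all libraries together, 13 of 16 oocyte and 13 of 15 granulosa genes passed the filter, and 0 genes of either list lacked a count throughout. Single genes of the lists could still have 0 counts in a library. In bulk samples, fewer cells of a type and less RNA per cell cannot be told apart.

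Gja1, a connexin of granulosa cells (chromosome 10 of GRCm38, 56377330 to 56402513), had 14.7, 6.98, 17.7 and 51.9 CPM in control replicates 1 to 4. Mito-supplemented replicates 1 to 4 gave 18.3, 44.5, 77.6 and 55.7 CPM. Control replicate 4 lay among the mito-supplemented libraries and mito-supplemented replicate 1 among the controls, so that the groups overlapped. Group means (± SD, n = 4 each) were 22.8 ± 19.9 CPM for control and 49.0 ± 24.7 CPM for mito-supplemented libraries, with a fitted log2 fold change of 1.11 (standard error 0.64; by the quasi-likelihood test of edgeR, with p adjusted after Benjamini-Hochberg, adjusted p = 0.681). Gja1 lay close to the mean of the granulosa list across the libraries. The root mean square difference between their centred profiles was 0.37 on the log2 scale, against 1.89 for the oocyte list. The difference was 0.51 from the stroma list and 0.60 from the endothelial list. Genes of the granulosa list did not all move alike, with 11 of the 13 tested higher in mito-supplemented samples and 2 lower. Whether this list follows granulosa cells alone was not tested. With the granulosa list as a covariate the log2 fold change of Gja1 was 0.17 (adjusted p = 0.925 by the quasi-likelihood test of edgeR). Without control replicate 4 it was 1.92 (adjusted p = 0.253 from the same edgeR test). Over all alternatives the adjusted p of Gja1 ran from 0.0221, by limma-voom with sample quality weights, to 0.971, by the edgeR test. The part of the granulosa content in the difference was not tested.

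**Figure D1:**
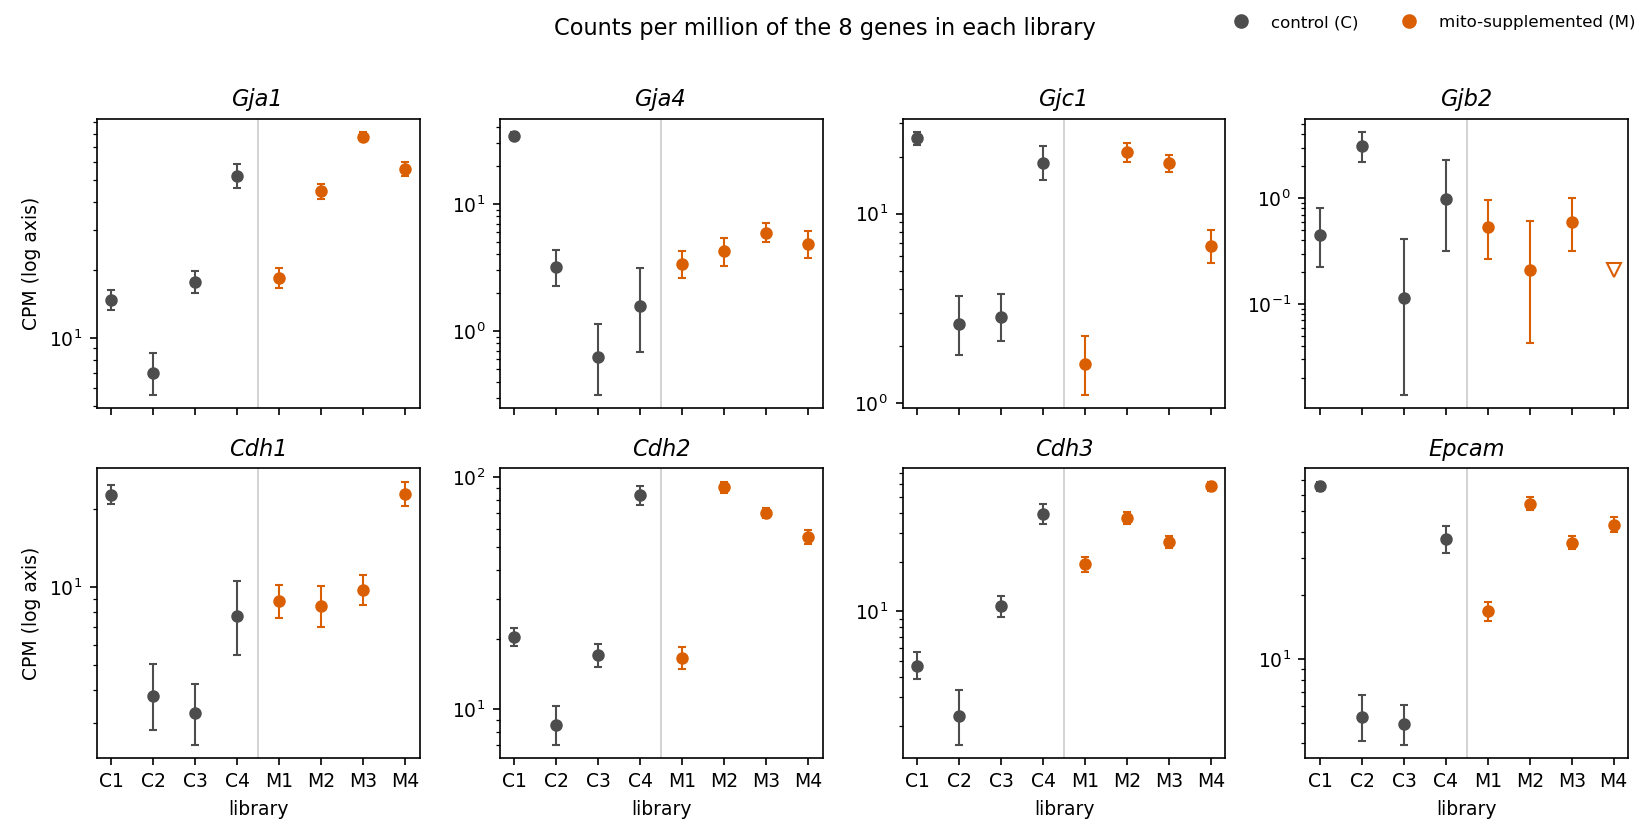
CPM on a log axis for each of the 8 genes in control replicates 1 to 4 (C1 to C4) and mito-supplemented replicates 1 to 4 (M1 to M4), with 95% Poisson intervals that cover counting error only; the open triangle for Gjb2 marks the level of 3 counts in a library with 0 counts. For each gene the groups overlap, and Gja4 has 34.4 CPM in control replicate 1 and at most 5.94 CPM elsewhere.

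Promoters of 4 of the 8 genes were present in the RefSeq table used, those of Gja1, Gja4, Gjb2 and Epcam. The promoter of Gja1 is shown because it alone among these 4 holds the AP-1 motif TGANTCA, which reads the same on both strands and was found in 7.81% of 32851 mouse promoters of 300 bases. The match, in capitals, starts at position -19 from the RefSeq start site (chr10:56377050-56377349, GRCm38.p6, plus strand).
Gja1: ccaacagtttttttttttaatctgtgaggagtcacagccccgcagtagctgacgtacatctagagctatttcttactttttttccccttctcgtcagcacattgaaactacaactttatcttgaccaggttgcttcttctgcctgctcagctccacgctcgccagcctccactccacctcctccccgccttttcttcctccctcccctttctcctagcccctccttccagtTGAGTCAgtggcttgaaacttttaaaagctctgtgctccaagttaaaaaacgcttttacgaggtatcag
A match describes the letters and not binding.

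Gja4, the connexin of the contact between oocyte and granulosa cell (chromosome 4, 127311421 to 127314039), had 34.4, 3.17, 0.629 and 1.58 CPM in control replicates 1 to 4, from 838, 40, 11 and 8 counts. Among mito-supplemented libraries the values ran 3.35, 4.22, 5.94 and 4.80 CPM, from 69, 61, 131 and 69 counts. The 4 mito-supplemented libraries lay close together, above 3 of the control libraries and below control replicate 1. That library held 59.2% of the summed CPM of Gja4 and was 5.78-fold above the next highest. Control libraries had a mean (± SD, n = 4 each) of 9.94 ± 16.3 CPM and mito-supplemented libraries of 4.58 ± 1.09 CPM, with a fitted log2 fold change of -1.13 (standard error 1.07; by the quasi-likelihood test of edgeR adjusted p = 0.781). The sign turned with control replicate 1, which was also the highest library for the oocyte list, and without it the log2 fold change was 1.37 (adjusted p = 0.669 from the same edgeR test). Over all alternatives the adjusted p of Gja4 ran from 0.0773, by limma-voom with sample quality weights, to 0.971, by the edgeR test. With the oocyte list as a covariate the log2 fold change was 0.80. The part of the oocyte content in the level of Gja4 was not tested.

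The promoter of Gja4 (chr4:127313990-127314289, GRCm38.p6, minus strand, from RefSeq) is shown with its CANNTG match in capitals, the E-box bound by bHLH factors. CANNTG reads on both strands alike and was found in 72.3% of the promoters, so that its presence sets Gja4 apart from few genes. The match starts at position 7 after the start site.
Gja4: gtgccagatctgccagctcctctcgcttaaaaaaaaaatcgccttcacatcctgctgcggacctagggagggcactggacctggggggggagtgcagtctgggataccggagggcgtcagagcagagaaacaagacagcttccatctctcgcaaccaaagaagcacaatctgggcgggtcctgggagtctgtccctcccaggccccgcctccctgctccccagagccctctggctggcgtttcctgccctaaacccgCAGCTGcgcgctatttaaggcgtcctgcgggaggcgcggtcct

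Gjc1, a connexin of many embryonic and vascular cells (chromosome 11, 102799579 to 102819700), had 24.9, 2.62, 2.86 and 18.6 CPM in control replicates 1 to 4. The mito-supplemented values, in the same order, were 1.60, 21.1, 18.4 and 6.74 CPM. The 3 lowest libraries were those with the highest red cell sums, 2 of them controls and 1 mito-supplemented. Group means (± SD, n = 4 each) were 12.2 ± 11.3 CPM for control and 12.0 ± 9.31 CPM for mito-supplemented libraries, with a fitted log2 fold change of -0.03 (standard error 0.92; by the quasi-likelihood test of edgeR adjusted p = 0.994). Its sign turned in 12 of 24 alternatives.

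Gjb2, a connexin of epithelia (chromosome 14, 57098600 to 57104702), was near the limit of detection and did not pass the filter. It had 11, 39, 2 and 5 counts in control replicates 1 to 4 and 11, 3, 13 and 0 counts in mito-supplemented replicates 1 to 4. The highest level was 3.09 CPM, in control replicate 2, with a 95% Poisson interval from 2.20 to 4.23 CPM. For the count of 0 in mito-supplemented replicate 4 this interval reaches up to 0.256 CPM. These intervals cover counting error only. In the fit of all genes with at least 1 count in any library its log2 fold change was -1.72 (standard error 1.54, adjusted p = 0.686 by the quasi-likelihood test of edgeR).

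Of the 20 connexin genes, 16 had a count and 4 were tested, Gja1, Gja4 and Gjc1 among them, of which 1 was higher and 3 were lower in mito-supplemented samples. Their median log2 fold change was -0.32, against -0.098 over all genes tested. Of these 4 connexins the quasi-likelihood test and the likelihood ratio test called 0 (of all genes 0% and 0.418%). DESeq2, which gave Gja4 no p, called 0 of the others (1.02% of all genes), and limma-voom with sample quality weights called 1, Gja1 (18.6% of all genes). The median was 1.94 in the limma-voom fit and 0.80 without control replicate 1. Of the 3 pannexins, which form channels related to connexins, Panx1 alone was tested, at -0.82 on the log2 scale (standard error 0.95), while Panx2 and Panx3 had 5 and 1 counts in all. Panx1 turned to 0.1 without control replicate 4 and to 0.21 in limma-voom.

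Cdh1, which encodes E-cadherin (chromosome 8, 106603351 to 106670246), had 22.7, 3.81, 3.26 and 7.70 CPM in control replicates 1 to 4. Mito-supplemented replicates 1 to 4 gave 8.83, 8.45, 9.75 and 22.9 CPM. Control replicate 1 and mito-supplemented replicate 4 were high and nearly equal, and the groups overlapped. Control libraries had a mean (± SD, n = 4 each) of 9.36 ± 9.10 CPM and mito-supplemented libraries of 12.5 ± 6.95 CPM, with a fitted log2 fold change of 0.41 (standard error 0.70; by the quasi-likelihood test of edgeR adjusted p = 0.868). Leaving out control replicate 1 gave 1.38, and leaving out mito-supplemented replicate 4 gave -0.01.

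Cdh2, which encodes N-cadherin (chromosome 18, 16588877 to 16809246), had 20.5, 8.56, 17.0 and 83.7 CPM in control replicates 1 to 4. Among mito-supplemented libraries the values ran 16.6, 90.9, 70.1 and 55.2 CPM. As for Gja1, control replicate 4 lay with mito-supplemented replicates 2 to 4, and mito-supplemented replicate 1 with the other controls. Group means (± SD, n = 4 each) were 32.4 ± 34.5 CPM for control and 58.2 ± 31.3 CPM for mito-supplemented libraries, with a fitted log2 fold change of 0.85 (standard error 0.73; by the quasi-likelihood test of edgeR adjusted p = 0.757). Without control replicate 4 it was 1.94, and with the granulosa list as a covariate -0.11.

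Cdh3, which encodes P-cadherin (chromosome 8, 106510891 to 106557297), had 4.68, 2.30, 10.8 and 39.3 CPM in control replicates 1 to 4. The mito-supplemented values, in the same order, were 19.4, 37.0, 26.5 and 57.8 CPM. All mito-supplemented libraries lay above control replicates 1 to 3, and control replicate 4 lay above 3 of them. Control libraries had a mean (± SD, n = 4 each) of 14.3 ± 17.1 CPM and mito-supplemented libraries of 35.2 ± 16.8 CPM, with a fitted log2 fold change of 1.32 (standard error 0.79; by the quasi-likelihood test of edgeR adjusted p = 0.694). Without control replicate 4 it was 2.58 (adjusted p = 0.203 from the same edgeR test). Over all alternatives the adjusted p of Cdh3 ran from 0.0239, by limma-voom with sample quality weights, to 0.971, by the edgeR test. The summed level of 11 surface epithelium genes, led by Upk3b with 20.3% of the sum and with 11 of 11 higher in mito-supplemented samples, was 114, 61.5, 44.7 and 418 CPM in controls and 342, 977, 424 and 864 CPM in mito-supplemented samples, and its part in the level of Cdh3 was not tested.

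Of the 18 classical cadherins, 9 were tested, 7 of them higher and 2 lower in mito-supplemented samples, with a median log2 fold change of 0.58. This median turned negative with the granulosa list as a covariate. Limma-voom with sample quality weights called 2 of the 9, Cdh2 and Cdh3, beside 18.6% of all genes, and the other tools called 0. Cdh11, a cadherin of mesenchymal cells, was the most abundant per kilobase (kb) of exon at 11.3 CPM per kb, with group means (± SD, n = 4 each) of 80.7 ± 72.8 CPM for control and 120.4 ± 76.8 CPM for mito-supplemented libraries. Among 15 catenins and nectins, which link cadherins to actin or sit beside them, 14 were tested, 9 higher and 5 lower, with a median of 0.21. The 3 highest per kb were the catenins Ctnnb1, Ctnnd1 and Ctnna1, at 41.4, 31.1 and 23.2 CPM per kb. Ctnnb1 had 188 ± 55.8 and 242 ± 32.2 CPM (SD, n = 4 each). Pvrl2, a nectin, had the lowest unadjusted p of that list and lay above every control library in all mito-supplemented libraries, with 13.4 ± 10.1 and 38.6 ± 8.38 CPM (SD, n = 4 each) and a log2 fold change of 1.54 (adjusted p = 0.626 by the quasi-likelihood test of edgeR). It was 1 of 14 genes with every mito-supplemented library above every control, beside 3.00% of all genes. Limma-voom called 6 of the 14, Pvrl2 and Ctnnd1 among them (18.6% of all genes), and the other tools called 0.

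Of 6 repressors that lower cadherin transcription, 5 were tested, 3 higher and 2 lower, with a median of 0.075. Snai2, Zeb1 and Zeb2 were the highest per kb, at 22.9, 16.5 and 7.98 CPM per kb. Snai1 had the lowest unadjusted p, with a fitted log2 fold change of 1.55 (standard error 1.38; by the quasi-likelihood test of edgeR adjusted p = 0.766). For Snai1, leaving out control replicate 4 gave 3.72, and leaving out mito-supplemented replicate 4 gave 0.64. Of 25 tight junction and desmosome genes 16 were tested, 10 higher and 6 lower, with a median of 0.82. Here too the median turned negative with the granulosa list as a covariate. Tjp1, F11r and Dsp were the highest per kb at 36.8, 12.1 and 7.57 CPM per kb. Dsc2, a desmosomal cadherin, had group means (± SD, n = 4 each) of 5.09 ± 3.42 CPM for control and 22.1 ± 9.97 CPM for mito-supplemented libraries, with a fitted log2 fold change of 2.13 (standard error 0.60; by the quasi-likelihood test of edgeR adjusted p = 0.569). Dsc2 was called by DESeq2 at 2.14 (adjusted p = 0.0493) and by limma-voom at 2.44 (adjusted p = 0.0140), in a range over alternatives of 0.0140 to 0.971. Its log2 fold change was 1.40 with the granulosa list as a covariate. Dsc2 had 3.36, 2.46, 4.46 and 10.1 CPM in control replicates 1 to 4 and 9.46, 30.1, 18.6 and 30.0 CPM in mito-supplemented replicates 1 to 4. The sums of the surface epithelium genes above were likewise highest in mito-supplemented replicates 2 and 4, as were those of the granulosa genes. The part of either list in the level of Dsc2 was not tested. Of the 16 genes tested DESeq2 called 2 (1.02% of all genes), limma-voom 7, with F11r among them (18.6%), the likelihood ratio test 0 (0.418%) and the quasi-likelihood test 0 (0%).

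Epcam, an epithelial adhesion molecule that is also found on germ cells (chromosome 17, 87635979 to 87651129), had 65.9, 5.31, 4.92 and 36.9 CPM in control replicates 1 to 4. Mito-supplemented replicates 1 to 4 gave 16.8, 54.3, 35.5 and 43.2 CPM. Control replicates 2 and 3 were the lowest, and mito-supplemented replicate 1 the next lowest, the 3 libraries with high red cell sums. Group means (± SD, n = 4 each) were 28.3 ± 29.2 CPM for control and 37.5 ± 15.8 CPM for mito-supplemented libraries, with a fitted log2 fold change of 0.41 (standard error 0.79; by the quasi-likelihood test of edgeR adjusted p = 0.882). Without these 3 libraries the fold change of Epcam was -0.19, an alternative chosen after seeing the data, while with the red cell list as a covariate it was 0.71. With the oocyte and granulosa lists as covariates it was 1.71 and -0.50. Leaving out control replicate 1 gave 1.29, and leaving out control replicate 3 gave 0.058. Limma-voom with sample quality weights called Epcam at 2.64 (adjusted p = 0.0143). The part of red cell content in the level of Epcam was not tested. Of 6 genes whose proteins work with Epcam or share its family 3 were tested, 2 higher and 1 lower, with a median of 0.80. They were Cd9, Spint2 and Spint1, at 4.88, 1.43 and 0.372 CPM per kb. Their median log2 fold change turned negative with the granulosa list as a covariate.

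The promoter of Epcam (chr17:87635729-87636028, GRCm38.p6, plus strand, from RefSeq) is shown because it holds 2 matches of CACCTG, read on either strand, the E-box form bound by the Snai and Zeb repressors above. They start at positions -187 and -19 and are in capitals. This motif, which is a form of CANNTG, was found in 20.2% of the promoters.
Epcam: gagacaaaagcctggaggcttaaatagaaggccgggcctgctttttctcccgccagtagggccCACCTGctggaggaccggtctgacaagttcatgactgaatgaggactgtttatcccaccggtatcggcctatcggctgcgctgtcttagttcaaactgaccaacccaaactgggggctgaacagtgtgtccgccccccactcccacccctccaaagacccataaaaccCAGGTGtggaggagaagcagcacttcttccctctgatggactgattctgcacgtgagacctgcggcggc

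EdgeR's quasi-likelihood test, with p adjusted after Benjamini-Hochberg, called 0 of the 7 genes at an adjusted p under 0.05 and a 2-fold difference, beside 0% of all 13873 genes. At an unadjusted p under 0.05 there were 0 of the 7, beside 1069 genes or 7.71% of all. In other fits there were 7 of 7 in limma-voom, beside 5222 of 13873 genes, and 3 of 7 with library size only, beside 1341 of 13873. A block for the replicate number gave 1 of 7, beside 981 of 13873 genes. Leaving out mito-supplemented replicate 1 gave 1 of 7, beside 2003 of 14251 genes. Where Gjb2 also passed the filter there were 3 of 8 without control replicate 4, beside 1863 of 14743 genes. Counts summed by label prefix gave 2 of 8, beside 1178 of 15705 genes. The likelihood ratio test called 0 of the 7, beside 58 genes or 0.418%, and DESeq2 called 0 of the 6 to which it gave an adjusted p, beside 141 genes or 1.02%. Limma-voom with sample quality weights called Gja1, Cdh2, Cdh3 and Epcam, 4 of the 7, beside 2578 genes or 18.6%. In this fit the weights were 0.231, 1.83, 3.53 and 0.538 for control replicates 1 to 4 and 0.514, 2.27, 2.58 and 0.414 for mito-supplemented replicates 1 to 4. The groups overlapped for each of the 7, whereas 5.03% of all genes had no overlap and 3.00% had every mito-supplemented library above every control. Of the 7, 5 had a higher and 2 a lower level in mito-supplemented samples, and with the granulosa list as a covariate 2 were higher and 5 lower. All 7 were higher in the limma-voom fit, with the oocyte list as a covariate, with a block for the replicate number and without control replicate 1. Without control replicates 2 and 3 and mito-supplemented replicate 1, the log2 fold changes were 0.85 for Gja1, -1.82 for Gja4, -0.47 for Gjc1, -0.13 for Cdh1, 0.48 for Cdh2, 0.90 for Cdh3 and -0.19 for Epcam, and 0 genes were called.

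**Figure D2:**
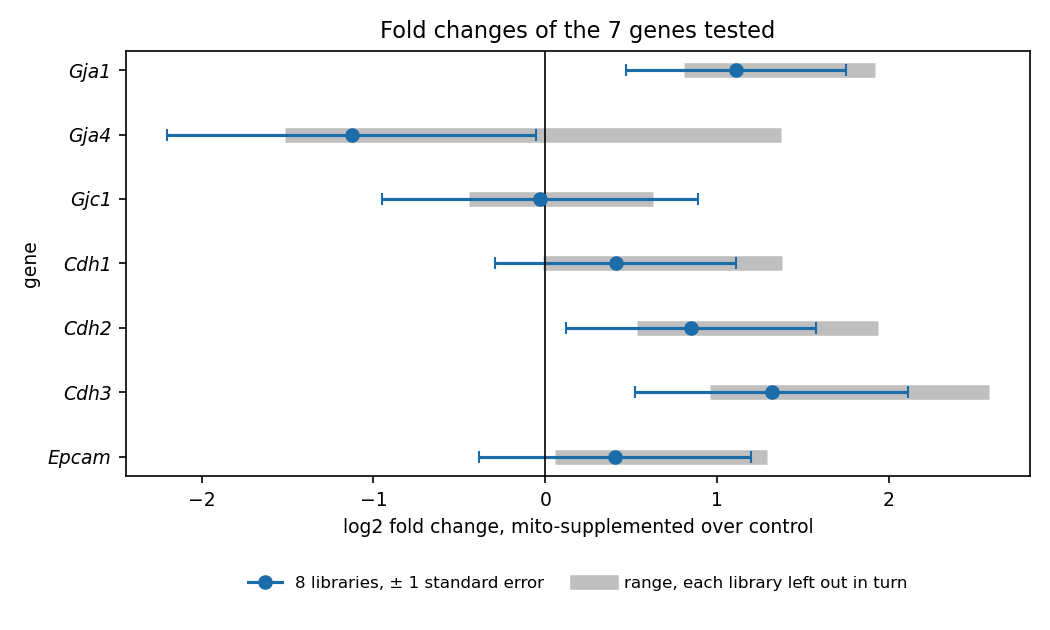
Log2 fold change of mito-supplemented over control for the 7 genes tested (points, ± 1 standard error from edgeR's quasi-likelihood fit) and the range when each library was left out in turn (grey bars). The bar of Gja4 runs from -1.51 to 1.37, and those of Gja1, Cdh2, Cdh3 and Epcam lie above 0.

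Per kb of exon, levels of different genes can be compared only roughly. The mean over 8 libraries was highest for Epcam at 15.0 CPM per kb, followed by Cdh3 at 5.64, Cdh2 at 5.62 and Gja4 at 4.31. Next were Gja1 at 3.50, Gjc1 at 2.42, Cdh1 at 2.39 and Gjb2 at 0.310 CPM per kb. The length used was the union of all annotated exons, 10257 bases for Gja1 and 1685 bases for Gja4. Where the transcripts present are shorter than this union, the level per kb comes out too low. The order therefore rests in part on the annotation. Epcam exceeded Cdh3 in 7 of 8 libraries, by 1.52 ± 1.50 on the log2 scale (SD, n = 8). The neighbours from Cdh3 down to Cdh1 differed by less than their spread, and Gjb2 lay below Cdh1 in 7 of 8 libraries, with 0 counts in mito-supplemented replicate 4. In controls Gja4 was the second highest at 5.90 ± 9.69 CPM per kb, and in mito-supplemented samples it was at 2.72 ± 0.646 CPM per kb (SD, n = 4 each). This rank rests on control replicate 1, without which Gja4 was at 1.06 ± 0.762 CPM per kb in controls (SD, n = 3), above Gjb2 alone.

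Ratios within a library do not depend on scaling. The log2 ratio of Gja4 to Gja1 was 1.22, -1.13, -4.75 and -4.95 in control replicates 1 to 4. Among mito-supplemented libraries the values ran -2.45, -3.39, -3.70 and -3.53. The controls spread to both sides of the mito-supplemented libraries, which lay within a narrow range. Control libraries had a mean (± SD, n = 4 each) of -2.40 ± 2.99 and mito-supplemented libraries of -3.27 ± 0.56, a difference of -0.86 (exact permutation test, two-sided, p = 0.629, 0.686 after adjustment over 2 ratios). Without control replicate 1 the difference was 0.35.

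The log2 ratio of Cdh1 to Cdh2 was 0.15, -1.16, -2.38 and -3.43 in control replicates 1 to 4. Mito-supplemented replicates 1 to 4 gave -0.91, -3.42, -2.84 and -1.27. Cdh2 counts exceeded Cdh1 counts in each library but control replicate 1. The difference in means was -0.41, from -1.70 ± 1.54 to -2.11 ± 1.21 (SD, n = 4 each; exact permutation test, two-sided, p = 0.686). Leaving out control replicate 1 gave 0.21, and leaving out mito-supplemented replicate 2 gave 0.03.

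**Figure D3:**
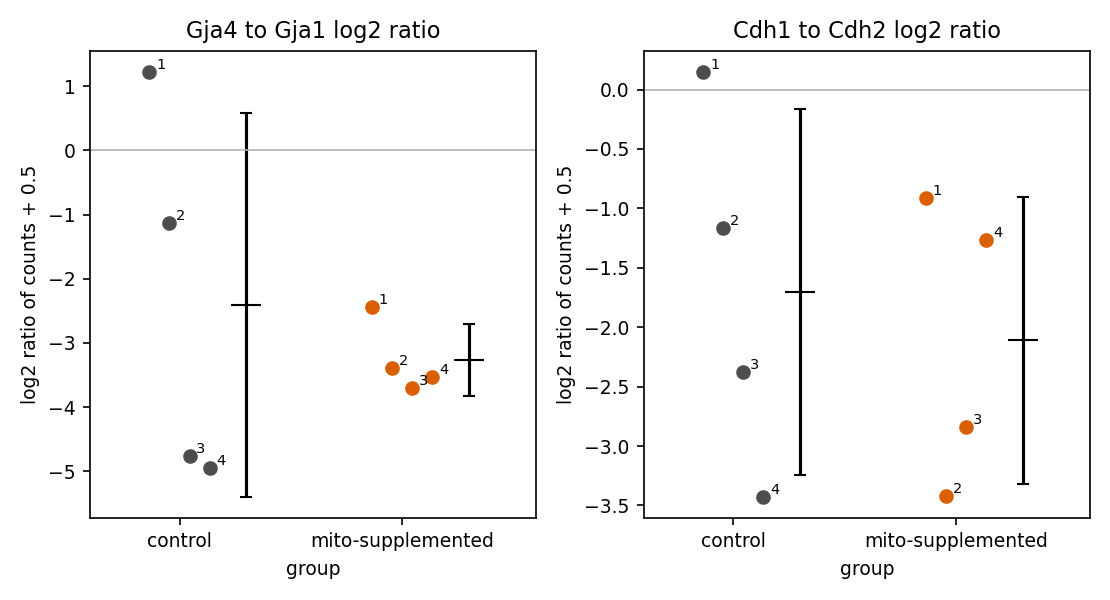
Log2 ratio of counts plus 0.5 in each library for Gja4 to Gja1 and for Cdh1 to Cdh2, with replicate numbers at the points and mean ± SD beside each group. Control replicate 1 is the library with a ratio above 0 in both panels, at 1.22 and 0.15.

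The 7 genes tested fell into different patterns over the libraries. The closest pair was Gja1 and Cdh2, with a root mean square difference of 0.41 on the log2 scale over 8 libraries, followed by Gja1 and Cdh3 at 0.68 and Cdh1 and Epcam at 0.75. The farthest pair was Gja4 and Cdh3 at 2.32. Among 11488 genes with a mean of at least 1 log2 CPM, the 3 closest to Gja1 were Ppap2b, Prelp and Pls3, at 0.17, 0.21 and 0.23. Gjc1 was closest to Rgnef, Zscan18 and Caskin1, at 0.50, 0.52 and 0.53, and Cdh1 to Aktip, Satb1 and Bcl9, at 0.18, 0.19 and 0.25. For Cdh2 they were Ppp1r26, Arhgap29 and Aff2, at 0.31, 0.34 and 0.36, and for Cdh3 Fam115a, D8Ertd82e and Sorbs3, at 0.30, 0.40 and 0.40. For Epcam they were Wnk3-ps, Lmo7 and Mcf2, at 0.28, 0.28 and 0.31.

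**Figure D4:**
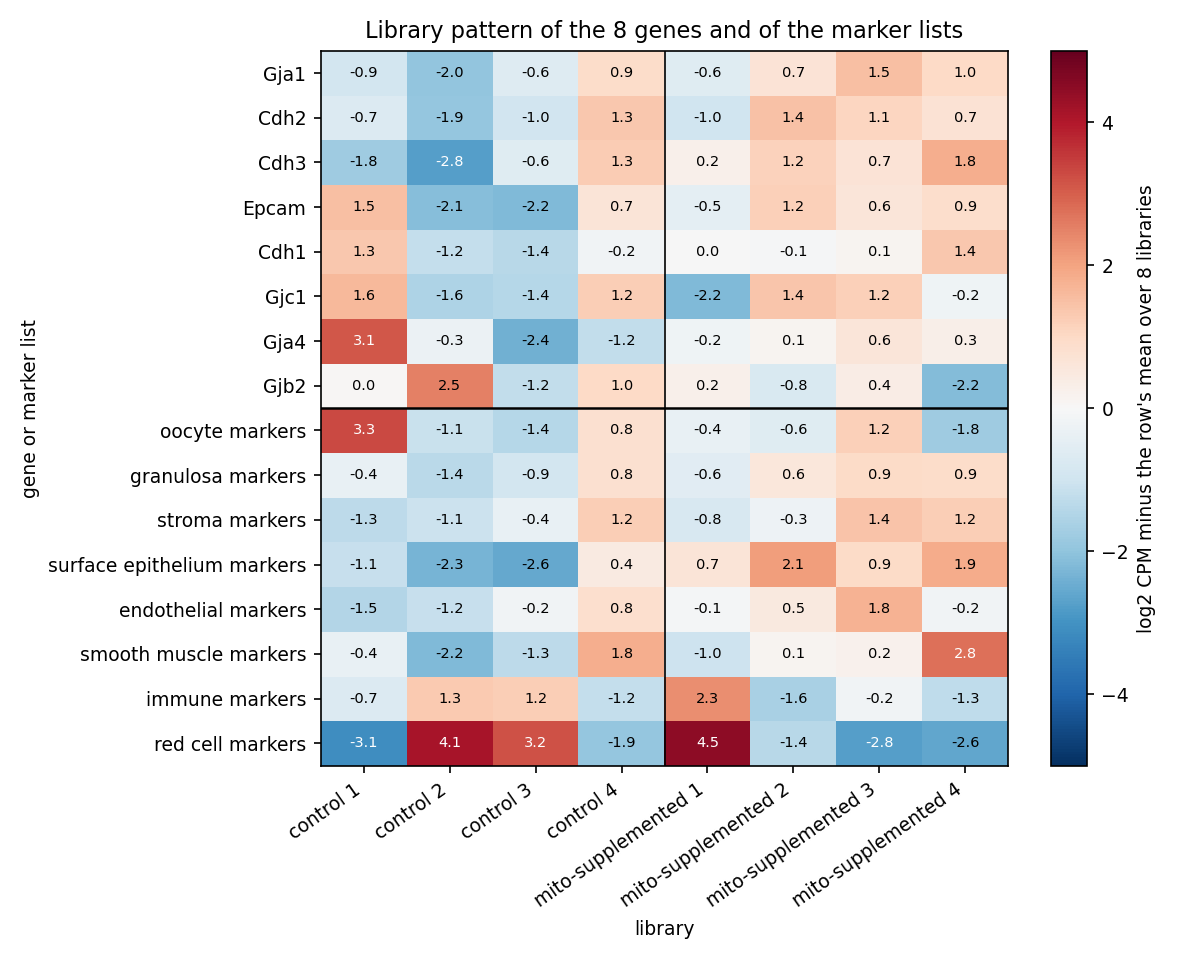
Log2 CPM of each of the 8 genes, and the mean log2 CPM of each marker list, minus its mean over the 8 libraries. Gja1, Cdh2 and Cdh3 are low in control replicates 1 to 3 and high in control replicate 4. Gja1 and Cdh2 are also low in mito-supplemented replicate 1. Gja4 is high in control replicate 1 with the oocyte list, and the red cell list is high in control replicates 2 and 3 and mito-supplemented replicate 1.

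Lists of other cell types also varied, and their part in the levels of the 8 genes was not tested. Of 4 red cell genes tested, 4 were lower in mito-supplemented samples, with a median log2 fold change of -0.24. The 11 stroma genes, led by Col3a1, summed to between 446 and 2738 CPM in controls and between 1106 and 3081 CPM in mito-supplemented samples, with 11 of 11 higher in the latter. The 9 endothelial genes, led by Kdr, summed to between 26.2 and 216 CPM and between 98.5 and 228 CPM, with 6 of 8 tested higher. The 6 smooth muscle genes, led by Myh11, summed to between 21.2 and 266 CPM and between 44.3 and 359.8 CPM, with 5 of 6 higher. The 9 immune genes, led by Lyz2 and with C1qb at 0 counts, summed to between 12.3 and 137 CPM and between 11.6 and 747 CPM. Of these 6 of 6 tested were higher in mito-supplemented samples, while the mean log2 CPM of the list was 1.73 for control and 1.38 for mito-supplemented libraries. Gja1 lay at a root mean square difference of 0.51 from the stroma list and 0.60 from the endothelial list.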

How the data were processed

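The deposited values are raw counts per gene symbol. According to the submitters' processing notes, the authors trimmed the reads with Trim Galore 0.4.4, mapped them to mm10 with STAR 2.5.3a and counted reads on exons with featureCounts, and used edgeR 3.20.9.

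In R 4.3.3, edgeR 4.0.16 was used with TMM scaling, its default expression filter and the quasi-likelihood test on all genes, with p adjusted after Benjamini-Hochberg. A call needed an adjusted p under 0.05 and a log2 fold change of at least 1. Log2 CPM used a prior count of 2, and standard errors were derived from the F statistic and the log2 fold change. DESeq2 1.42.0 and limma 3.58.1 gave alternatives, as did other scalings, filters and covariates and each library left out in turn. Exact permutation tests used log2 ratios of counts plus 0.5. Exon lengths, each the union of all annotated exons of a gene, and coordinates come from GENCODE M21, with a length for 97.4% of the genes tested. The alternative without the 3 libraries high in red cell transcripts was chosen after seeing the data. The scripts were tested on simulated data.

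The genes named are the 8 members, in each junction list the 3 highest per kb of exon and the lowest unadjusted p, since the quasi-likelihood test called none, the most abundant gene of each marker list and any at 0 counts, and for each member tested the 3 genes closest in pattern, which are not given for Gja4. The lists covered connexins, pannexins, classical cadherins, catenins and nectins, cadherin repressors, Epcam partners, tight junction and desmosome genes, and markers of oocyte, granulosa, stroma, surface epithelium, endothelial, smooth muscle, immune and red cells. The members and lists were chosen with earlier results of these data known.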

Additional observations from a re-analysis of the deposited data

Results flagged for a closer look

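Among 20 groups of 4 libraries examined, 1 held a library that stood apart from the other 3, and chance gives about 1 in 20. It was the level of Cdh1 in mito-supplemented replicate 4, 4.52 log2 CPM from 329 counts, while mito-supplemented replicates 1 to 3 had 3.10 to 3.30. Leaving this library out gave a log2 fold change of -0.01 for Cdh1, against 0.41 with it. The cause was not tested.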

How the results depend on the processing

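The direction held for Gja1 and Cdh3 in all 24 alternatives, and for Gja4, Gjc1, Cdh1, Cdh2 and Epcam in 20, 12, 21, 23 and 22. Genes called numbered 58 in the likelihood ratio test, 141 in DESeq2 and 2578 in limma-voom with sample quality weights, in which the log2 fold changes of Gja1, Cdh2, Cdh3 and Epcam were 1.92, 2.12, 2.08 and 2.64. Those of Gja4 and Gjc1 turned to 1.95 and 2.07 there, and to 0.80 and 0.96 with the oocyte list as a covariate. With library size only Gja1, Cdh2 and Cdh3 were 1.76, 1.54 and 2.07. Gjc1 turned to 0.23 with library size only, 0.13 with upper quartile scaling, 0.014 without rRNA symbols, 0.04 with at least 1 count and 0.012 with at least 1 CPM in 4 samples. With the granulosa list as a covariate Cdh1, Cdh2 and Epcam turned to -0.15, -0.11 and -0.50, Gjc1 went to -1.65 and Cdh3 to 0.70, and without the 3 libraries high in red cell transcripts Cdh1 and Epcam to -0.13 and -0.19. Over the fits with 1 library left out, values ran from 0.81 to 1.92 for Gja1, -1.51 to 1.37 for Gja4, -0.45 to 0.62 for Gjc1, -0.01 to 1.38 for Cdh1, 0.53 to 1.94 for Cdh2, 0.96 to 2.58 for Cdh3, 0.058 to 1.29 for Epcam, -1.71 to 0.35 for the ratio of Gja4 to Gja1 and -0.98 to 0.21 (0.03 without mito-supplemented replicate 2) for that of Cdh1 to Cdh2. A replicate block gave 0.67 for Gja4 and 0.24 for Gjc1 and changed no call, and the replicate numbers do not pair the libraries (correlations of the same number -0.24, -0.19, -0.33 and 0.22). The adjusted p values from edgeR's quasi-likelihood test and the other tools ranged over the alternatives from 0.0221 to 0.971 for Gja1, 0.0773 to 0.971 for Gja4, 0.0818 to 0.998 for Gjc1, 0.0612 to 0.999 for Cdh1, 0.0184 to 0.971 for Cdh2, 0.0239 to 0.971 for Cdh3 and 0.0143 to 0.992 for Epcam. Limma-voom also called Ctnnd1, Pvrl2, F11r and Dsc2 at 1.12, 1.96, 2.41 and 2.44, and DESeq2 called Dsc2 at 2.14. Other genes turned as follows: Panx1 to 0.21 (limma-voom; left out -1.41 to 0.10), Cdh11 to -0.23, Snai2 to -0.15, Spint1 to -2.86 and Dsp to -0.092 (granulosa list), Snai2 left out -0.098 to 1.80, Zeb1 to -0.11, -0.0072 and -0.47 (red cell, oocyte and granulosa lists; left out -0.23 to 0.46), Zeb2 to 0.34 (library size only) and 0.44 (summed by label prefix; left out -0.61 to 0.13), Cd9 to 1.19 (limma-voom) and 0.44 (oocyte list; left out -1.38 to 0.65), and Tjp1 to -0.011 (label prefix), -0.088 (granulosa list) and -0.16 (without the 3 libraries; left out -0.085 to 0.28). The median log2 fold change moved to 2.07 for the 7 genes and 1.94 for connexins (limma-voom), 0.88 for connexins (oocyte list; left out -0.75 to 0.80), 1.30 and 1.25 for classical cadherins (library size only, label prefix; left out 0.27 to 1.46), and with the granulosa list to -2.43 for pannexins, -0.23 for classical cadherins, -1.60 for Epcam partners and -0.09 for tight junction and desmosome genes. The median of the 7 genes was 0.41 in the fit of all 8 libraries without a covariate. It turned to -0.15 with the granulosa list and to -0.13 without the 3 libraries high in red cell transcripts. For catenins and nectins the median ranged from 0.09 to 0.62 with a library left out. The cause was not tested.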
